A study of Mus musculus with 6 samples.

Results

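Nuclear receptors of the liver were followed in the RNAseq of livers lacking *Txndc5*. The members were 35 genes of the nuclear receptor superfamily, named by gene symbol, with earlier results of these data known. The clock receptors, *Ppara*, *Nr1h4* (FXR) and *Nr0b2* (SHP) were not among them. Of the 35, 33 were listed among the 16123 genes of the series, and 28 of these reached a mean value of at least 10, as 11367 genes did. *Nr0b1* and *Pgr* had no row. The livers came from two-month-old male mice, fed a purified diet of the AIN-93 type for 4 weeks and fasted for 16 h. WT mice carried the strain label C57BL/6Rj, and KO mice the label C57BL/6JRj-Txndc5<em2Mdnp>/Ciba, an allele in which CRISPR/Cas9 removed a stretch spanning exon 3 in every cell. The KO line descended from 1 male founder, and its mice were homozygous. For each genotype, 3 libraries were made from pools of liver RNA, each pool holding equal amounts from 3 mice. The spread between libraries is therefore one between pools, not between single mice.

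Nuclear receptors are transcription factors that bind DNA through a pair of zinc fingers and, in many cases, are switched by a small lipid-soluble ligand held in a pocket of the same protein. Some steroid receptors, the glucocorticoid receptor among them, wait with chaperones in the cytosol and enter the nucleus when hormone arrives. Most receptors for oxysterols, retinoids and thyroid hormone instead sit on DNA as partners of RXR and exchange corepressors for coactivators. In the liver they set the pace of bile acid, lipid, glucose and drug metabolism, and HNF4A, which needs no hormone, is one of the factors that give hepatocytes their identity. Expression of a receptor gene is a separate matter from activity of its protein, which depends on ligand and was not measured here.

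The deposited values allowed 2 kinds of comparison. For every gene there was 1 value per genotype, made by the authors from 3 libraries as reads divided by size factors, with no error attached. For weakly expressed genes the whole reads of each library could be recovered from these values, which gave 3 KO and 3 WT values per gene. Recovered libraries carry no pool number and are called library 1, 2 and 3 of their genotype, in order of falling size factor. Reads were recovered for 15 receptors, of which 10 had a sum of normalized reads of at least 60 and entered the limma comparison. The other 18 listed receptors had the authors' values alone and were not tested here. These 18 include every receptor with a mean above 100, and *Rxrg*.

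The libraries held from 44040160 to 46050030 clean reads, of which 91.63 to 93.66% were mapped. *Txndc5*, the targeted gene, had authors' values of 2697 (WT) and 90.8 (KO), in the direction of the labels. Hepatocyte markers were abundant, with summed values of 2863410 in WT and 2660060 in KO over 12 genes. Library 1 of each genotype stood apart from the other libraries of its genotype. Across the 3915 compared genes with a known base composition, its difference from the other 2 libraries ran against the G + C content of the transcripts, with Spearman's rho of -0.655 in WT and -0.569 in KO. The limma differences of the receptors below are therefore also given without both libraries 1, an alternative added after seeing the data. The authors' values include library 1 and cannot be given without it.

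The levels of the receptors spanned more than 4 orders of magnitude. On the scale of the authors' values per kb of gene length, averaged over both genotypes, *Hnf4a* was highest with 3157 and *Rxra* followed with 2170. *Nr1h3* (1845), *Nr1i3* (1497), *Nr2f6* (1358) and *Nr1i2* (659) came next, and these 6 genes held 82.5% of the summed level of all listed receptors. *Nr1h2* (644), *Esrra* (424), *Rxrb* (316), *Rara* (199) and *Thra* (166) formed a second tier. The 28 receptors with a mean of at least 10 had a median of 58.2, beside 58.4 over all genes with such a mean, and all 33 had a median of 44.2. At the bottom, *Hnf4g* (0.139), *Vdr* (0.135) and *Nr4a3* (0.122) were near 0. The abundant receptors were thus HNF4A, the sensors of oxysterols and foreign compounds, their partner RXRA, and the orphan receptor encoded by *Nr2f6*, and the 5 highest kept 1 order in both genotypes.

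**Figure D1:**
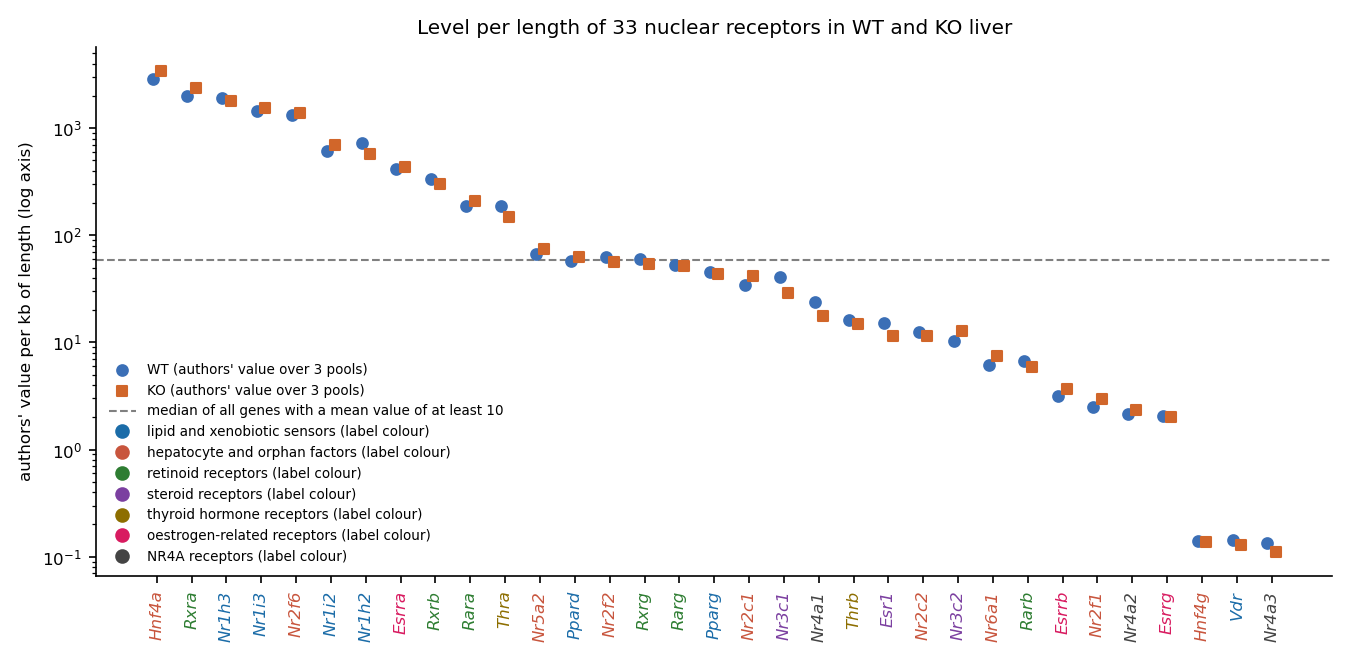
Level of the 33 listed nuclear receptors in WT (circles) and KO (squares) liver, as the authors' value per kb of gene length on a log axis, with gene names coloured by role. *Hnf4a* and *Rxra* lead with 3157 and 2170 on average, 3 genes lie below 1, and the symbols of the 2 genotypes lie close together for every gene.

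The question put to the receptors was whether their transcripts differed between KO and WT liver. By the authors' values, none of the 28 receptors with a mean of at least 10 was higher in KO by a log2 ratio of 0.5 or more, where 282 of 11367 genes (2.48%) were. None was lower by 0.5 or more, where 898 genes (7.90%) were. The ratios ran from -0.49 (*Nr3c1*) to 0.29 (*Nr3c2*), with 13 above 0, 15 below 0 and a median of -0.03, beside a median of -0.05 over all genes. Within 0.3 of 0 lay 23 of the 28 receptors (82.1%), beside 72.4% of all genes. The 5 outside that range were *Nr3c1*, *Nr4a1*, *Esr1*, *Nr1h2* and *Thra*, and all 5 had the lower value in KO. The authors' ratios are shrunken toward 0, most of all for weakly expressed genes, so they understate differences: *Nr4a3* had a KO value of 0.616 although no KO library held a read of it.

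**Figure D2:**
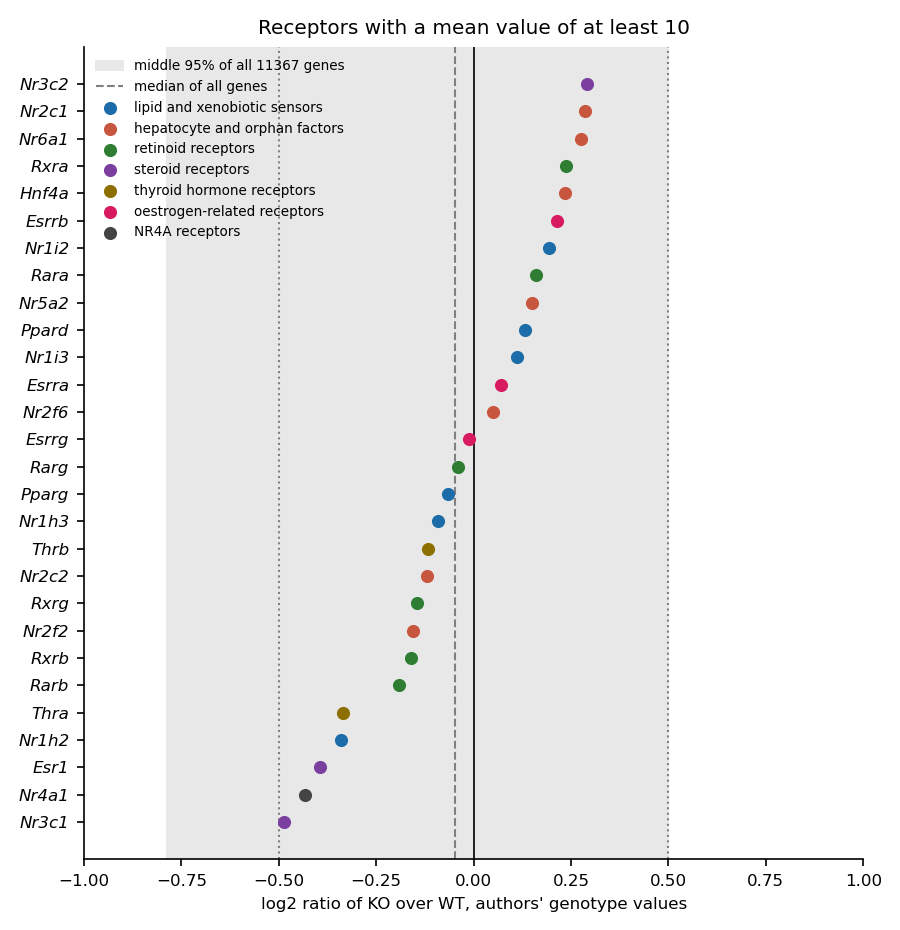
Log2 ratio of KO over WT from the authors' genotype values for the 28 receptors with a mean of at least 10, coloured by role. All points lie between -0.49 and 0.29, inside the dotted limits at -0.5 and 0.5 and inside the grey band that holds the middle 95% of all 11367 genes.

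In the comparison of recovered reads, none of the 10 receptors passed. limma on log2(normalized reads + 1), with Benjamini-Hochberg adjustment over 4038 genes, gave an adjusted p of 0.999 for each of them. Over all 4038 genes it called 1 (0.0248%), *Moap1*, a gene named here only because of this count and chosen after its values were seen: it had no read in any KO library and 13.1, 38.7 and 22.0 normalized reads in WT libraries 1 to 3. At an unadjusted p under 0.05 limma called 71 genes (1.76%) and again no receptor. No receptor had all 3 KO libraries above all 3 WT libraries, as 120 genes (2.97%) had, and none had all KO libraries below, as 97 genes (2.40%) had. The exact permutation test of normalized reads gave p from 0.5 (*Esr1*) to 1 (*Esrrg* and *Pparg*) for the 10 receptors, where 0.1 is the smallest p that 3 libraries against 3 allow. The interval around each difference was wide, so that these data do not show that the receptors had like levels: for *Pparg*, the most precise, it ran from -0.90 to 0.83 on the log2 scale, and for *Esrrg*, the least precise, from -1.32 to 1.95.

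**Figure D3:**
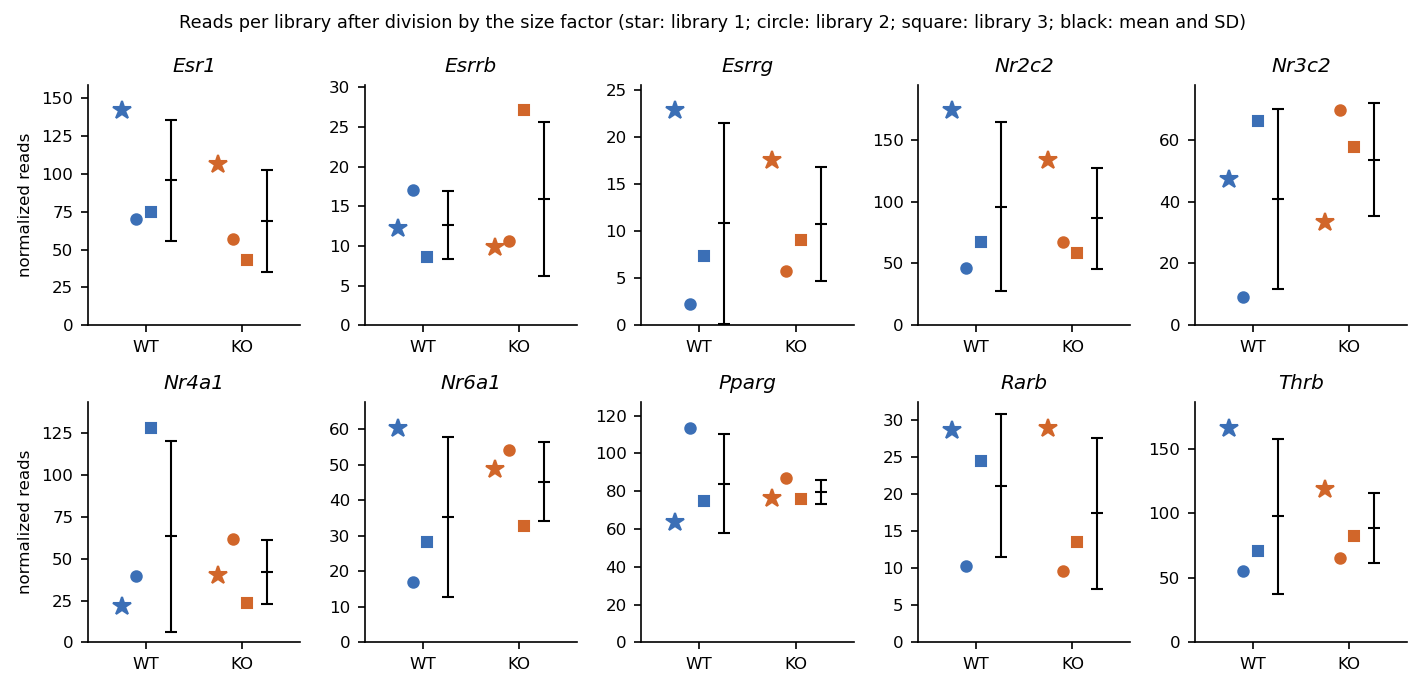
Normalized reads of the 10 receptors in the limma comparison, 1 symbol per library (star, library 1; circle, library 2; square, library 3), with the mean and SD of 3 libraries in black. The KO and WT symbols overlap for all 10 genes, and library 1 is the highest of both genotypes for *Esr1*, *Esrrg*, *Nr2c2*, *Rarb* and *Thrb*.

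The receptors of lipids and foreign compounds had log2 ratios from -0.34 to 0.19 by the authors' values. *Nr1h3* (LXR alpha, the oxysterol receptor that turns on cholesterol export and fatty acid synthesis; chr2:91184061-91202834, minus strand, GRCm38) had 3452 in WT against 3242 in KO (log2 ratio -0.09). *Nr1h2* (LXR beta, the widely expressed form) had 1451 against 1147 (-0.34). *Nr1i3* (CAR) and *Nr1i2* (PXR), which sense drugs and induce the enzymes that clear them, had 2025 and 1560 in WT and 2187 and 1782 in KO, with ratios of 0.11 and 0.19. *Ppard*, a fatty acid receptor, had 186 in WT and 203 in KO (0.13). Thus 3 of these 5 genes leaned to KO and both LXR genes to WT, and none of them was tested here.

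*Pparg*, the fat cell regulator whose liver level is low in lean mice, could be read per library (chr6:115360951-115490399, plus strand). It had 76.2, 86.9 and 75.6 normalized reads in KO libraries 1 to 3 and 63.7, 114 and 74.6 in WT libraries 1 to 3. The KO values lay between the WT values, and the WT spread was about 4 times the KO spread (84.0 ± 26.3 against 79.6 ± 6.34; SD, n = 3 pools). KO minus WT came to -0.04 log2 units (SE 0.38), -0.18 without both libraries 1 and 0.20 without WT library 2. The reads of *Pparg* were the possible set that lay within 0.5 log2 units of the authors' ratio (-0.07), so this difference is not independent of that ratio. Fat cell transcripts varied more than *Pparg* did: 5 adipocyte markers with recovered reads summed to 372, 75.3 and 21.5 normalized reads in KO libraries and 19.6, 121 and 30.6 in WT libraries. *Pparg* was highest in WT library 2, second in these markers, and had 2 libraries above it and 3 below in KO library 1, first in them. The part of fat cells in *Pparg* was not tested. *Vdr*, the vitamin D receptor, of which hepatocytes are known to have little, had 1 read in KO and 3 reads in WT over 3 libraries each.

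Target genes of these receptors were read from lists by the authors' values. Of 15 LXR target genes, *Fasn* (fatty acid synthase; 1509 in WT, 2555 in KO, ratio 0.76) lay above the limit of 0.5, *Cyp7a1* (the rate-limiting enzyme of bile acid synthesis; 804 and 374, -1.11) below it, and the median was 0.15. *Abcg1*, a cholesterol exporter, stayed inside with 0.44. It had 110, 75.3 and 63.2 normalized reads in KO libraries and 73.5, 58.0 and 42.8 in WT libraries, which overlap. Of 16 PXR and CAR target genes with a mean of at least 10, *Cyp2a5* (3162 and 5393, 0.77) and *Abcb1a* (8.95 and 12.6, just inside the limit) were the highest and *Gsta2* (74.9 and 45.1, -0.73) the lowest, with a median of 0.05 and 1 gene past the limit in each direction. *Cyp2b10*, the classic CAR target, was hardly read, with between 0 and 3.39 normalized reads per library. Of 11 PPARG and PPARD target genes, *Mogat1* (9.70 and 18.6, 0.94) was past the limit and the median was 0.14, with *Pdk4* at 0.42. Of 8 VDR target genes only 2 reached a mean of 10, *Spp1* with 0.37 and *Cyp2r1* with -0.30.

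**Figure D4:**
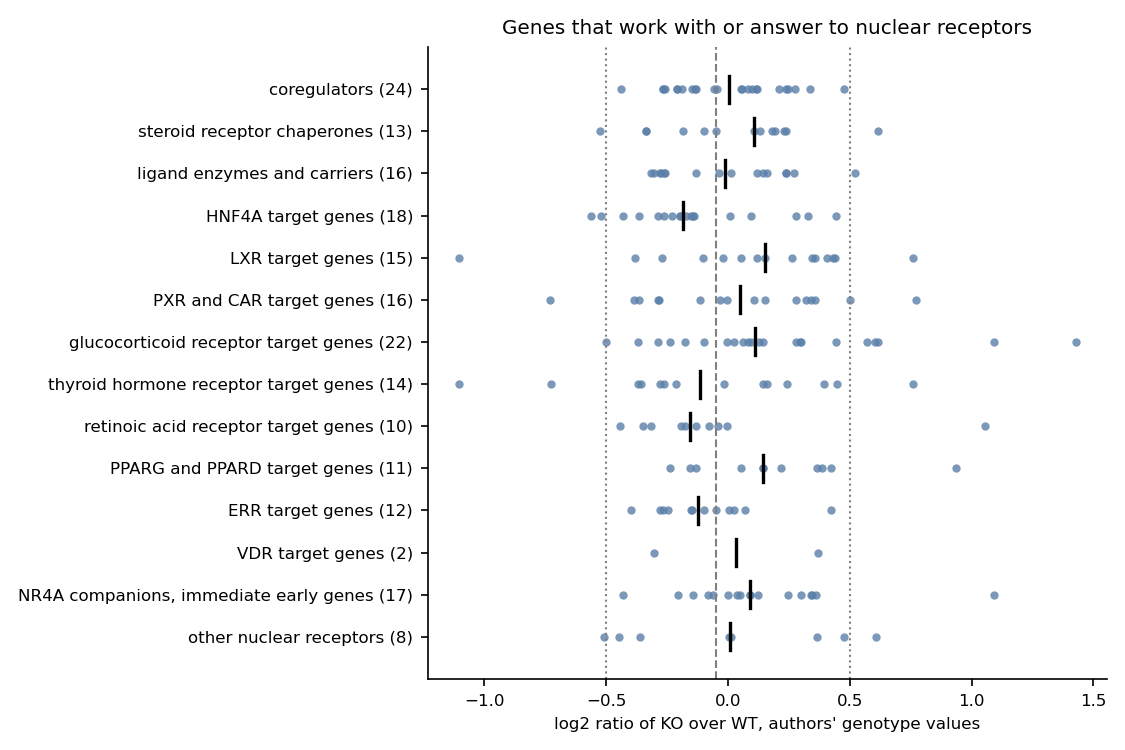
Log2 ratio of KO over WT from the authors' values for genes that work with, or answer to, nuclear receptors, 1 point per gene with a mean of at least 10 and the number of genes in brackets. Black bars are list medians, the dashed line is the median of all genes (-0.05) and the dotted lines mark -0.5 and 0.5. List medians lie between -0.18 and 0.15.

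*Hnf4a* (chr2:163506808-163572910, plus strand), the hepatocyte factor that binds the promoters of apolipoprotein, clotting factor and drug-metabolism genes, had 12717 in WT against 14949 in KO by the authors' values (0.23). *Nr5a2* (LRH-1), a regulator of bile acid genes, had 249 and 276 (0.15). The COUP-TF family, orphan receptors that mostly repress, was mixed: *Nr2f6* had 2960 and 3065 (0.05), *Nr2f2*, which in liver is also a gene of vessels and stroma, had 265 and 238 (-0.16). *Nr2f1* was read 24 times over the KO libraries and 17 times over the WT libraries, too few for limma's minimum, and its libraries overlapped (6.10, 5.79 and 11.3 against 7.35, 4.55 and 4.89 normalized reads). *Hnf4g*, the gut form of HNF4, had 2 reads in each genotype. In bulk tissue, fewer cells of a type and less RNA per cell cannot be told apart for any of these genes.

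The testicular receptors TR2 and TR4 (*Nr2c1* and *Nr2c2*) are orphan receptors that pair with each other. *Nr2c1* had 131 in WT and 159 in KO by the authors' values (0.29). *Nr2c2* (chr6:92091390-92174294, plus strand) had 133, 67.6 and 58.7 normalized reads in KO libraries and 174, 46.6 and 67.3 in WT libraries. Library 1 was the highest in both genotypes, by about 2-fold or more over the others, and KO library 1 was higher than 2 of the WT libraries. On the log2 scale KO minus WT was -0.02 (SE 0.57) and became 0.17 (SE 0.43) without both libraries 1, so its direction was not fixed by these data.

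*Nr6a1* (GCNF; chr2:38723370-38927688, minus strand), a repressor of germ cells and embryos, had 48.8, 54.1 and 32.7 normalized reads in KO libraries and 60.4, 17.1 and 28.1 in WT libraries. WT library 1 was the highest of all 6, and every KO library was higher than the other 2 WT libraries. The log2 difference was 0.51 (SE 0.51, 95% interval -0.65 to 1.66). Without both libraries 1 it was 0.91 (SE 0.48, limma p of 0.098, adjusted p of 0.941), with both KO libraries above both WT libraries. Such a separation of 2 against 2 was found in 34.3% of all genes compared, so it is common.

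Genes bound by HNF4A in hepatocytes had a median log2 ratio of -0.18 over 18 genes, on the other side of 0 from *Hnf4a* itself. The 2 past the limit, both lower in KO, were *Apoa4* (136017 and 92211, -0.56) and *Apob* (35805 and 24961, -0.52), which encode apolipoproteins. *G6pc*, the glucose-releasing phosphatase, had the highest ratio with 0.45. The 12 hepatocyte markers, which overlap with this list, had a median of -0.15 and ran from -0.40 to 0.20. *Apoa1* (-0.40), *Fgb* (-0.29) and *Ttr* (-0.26) were the lowest. *Cyp2e1* (0.20), *Tat* (0.09) and *Alb* (0.0033) were the only ones above 0.

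Retinoid receptors come as RXR, the common partner, and RAR, the receptor of all-trans retinoic acid. *Rxra* (chr2:27676440-27762957, plus strand), which pairs with LXR, PXR, CAR and the PPARs in hepatocytes, had 10240 in WT and 12078 in KO (0.24), close to the ratio of *Hnf4a*. *Rxrb* had 842 and 752 (-0.16), and *Rxrg* 101 and 91.3 (-0.15). *Rara* had 604 and 675 (0.16) and *Rarg* 147 and 142 (-0.04). The most abundant RXR and RAR gene thus each leaned to KO, and *Rxrb*, *Rxrg* and *Rarg* to WT, none beyond 0.24, and *Rarg* turned to 0.01 when ratios were centred on the median of all genes.

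*Rarb* is at once a receptor and a classic target of retinoic acid, through a repeated element in front of one of its start sites. The RefSeq window of that start, 250 bases before to 50 bases after it, is printed here because the element is a textbook receptor binding site and because *Rarb* was also counted as a target gene (chr14:16575427-16575726, minus strand, GRCm38.p6, inside the gene span of 16430839 to 16819156). Capitals mark the direct repeat GGTTCA and AGTTCA with 5 bases between them, whose parts begin 53 and 42 bases before the start site.
Rarb: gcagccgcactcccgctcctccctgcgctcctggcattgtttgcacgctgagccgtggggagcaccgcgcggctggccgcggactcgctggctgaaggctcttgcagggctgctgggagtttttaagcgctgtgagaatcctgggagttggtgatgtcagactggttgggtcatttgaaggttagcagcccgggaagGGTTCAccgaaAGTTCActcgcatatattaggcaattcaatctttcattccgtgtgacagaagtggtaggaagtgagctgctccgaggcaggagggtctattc
This pair, searched on both strands, was found in 2 of 32851 RefSeq windows of the same length (0.00609%), 1 of them that of *Rarb*. The letters searched were those of the *Rarb* element itself, so its own match was fixed in advance. Other spellings of such a repeat were not searched, and the share does not tell how rare these repeats are. The general half-site AGGTCA, which neither part of the pair matches, was found in 16.3% of all windows and in 10 of the 52 windows of receptors (19.2%), which belong to 9 of the 32 receptors with an entry. A match of letters is a description and no evidence of binding.

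*Rarb* had 29.0, 9.65 and 13.5 normalized reads in KO libraries and 28.6, 10.2 and 24.5 in WT libraries. Library 1 was the highest of each genotype at nearly the same level, and library 2 the lowest of each. KO minus WT came to -0.29 log2 units (SE 0.54, 95% interval -1.52 to 0.94), -0.44 without both libraries 1 and 0.035 without KO library 2. Of 10 retinoic acid receptor target genes with a mean of at least 10, *Rarb* included, *Cyp26b1*, an enzyme that degrades retinoic acid, lay above the limit (81.3 and 169, 1.05) and none below. The median was -0.15, and *Lrat*, which makes retinyl esters in stellate cells, had the lowest ratio (-0.44), with 41.9, 25.1 and 24.8 normalized reads in KO and 67, 29.6 and 37.9 in WT libraries, which overlap. *Rarres2* had -0.35. *Cyp26a1*, the other retinoic acid hydroxylase, had between 2.26 and 12.2 normalized reads per library. Enzymes and carriers of ligands had a median of -0.01 over 16 genes, with *Serpina6*, the plasma carrier of corticosterone, past the limit (2351 and 3369, 0.52).

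Of the steroid receptors, *Nr3c1*, the glucocorticoid receptor that drives gluconeogenesis in fasting, had the lowest ratio of all 28 members: 257 in WT against 183 in KO (-0.49), just inside the limit. Its transcripts are 44.8% G + C. The 2208 genes below 45% G + C had a median ratio of -0.29, beside 0.01 for genes from 45 to 50%, 0.02 from 50 to 55% and -0.05 above. The 3 members below 45% (*Nr3c1*, *Nr2c2* and *Esrrg*) all had ratios below 0, although *Esrrg* was at only -0.01 and turned to 0.03 with ratios centred on the median of all genes. The other 4 of the 5 lowest members lay above 45% G + C, and over all 28 members Spearman's rho between ratio and G + C was -0.02, beside 0.23 over 11051 genes. A low G + C content thus stood beside the low ratio of *Nr3c1*, and its part in that ratio was not tested.

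*Nr3c2*, the mineralocorticoid receptor (chr8:76899442-77245012, plus strand), had the highest ratio of the members by the authors' values. It had 33.5, 69.5 and 57.6 normalized reads in KO libraries and 47.4, 9.10 and 66.0 in WT libraries. WT library 2, with 8 reads, was far below the other 5, and the remaining libraries overlapped. On the log2 scale KO minus WT was 0.71 (SE 0.70, 95% interval -0.88 to 2.30), 1.30 without both libraries 1 and -0.12 without WT library 2, so that its sign rested on that library. *Esr1*, oestrogen receptor alpha (chr10:4611593-5005614, plus strand), had 107, 57.0 and 42.9 normalized reads in KO libraries and 142, 70.5 and 74.6 in WT libraries. Within each genotype library 1 was the highest, and KO library 1 was above WT libraries 2 and 3. The log2 difference was -0.50 (SE 0.48, 95% interval -1.59 to 0.59) and -0.54 without both libraries 1, where both KO libraries lay below both WT libraries, again the separation that 34.3% of genes had. *Esr1* kept its lower level in KO when each library was left out in turn, from -0.86 to -0.18. Its reads, however, were the possible set that lay within 0.5 log2 units of the authors' ratio (-0.39). Their direction is therefore not independent of the authors' value.

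Among glucocorticoid receptor targets 5 genes lay past the limit, all above it: of 22 genes with a mean of at least 10, *Lcn2* (an acute phase protein; 147 and 396, 1.43), *Zbtb16* (90.4 and 193, 1.09), *Fkbp5* (593 and 908, 0.61), *Igfbp1* (1905 and 2893, 0.60) and *Gadd45a* (10.7 and 15.9, 0.57) were higher in KO. None was past the limit in the other direction, though *Pik3r1*, a subunit of PI3 kinase, lay just inside it (235 and 166, -0.50) and *Klf9* had -0.37. Over all genes with a mean of at least 10, 2.48% lay above the limit and 7.90% below. The list was chosen with earlier results of these data known, and the paper reports *Lcn2* as raised in KO. The median of the list was 0.11. *Gadd45a* had 10.7, 28 and 13.5 normalized reads in KO and 10.6, 14.8 and 2.45 in WT libraries, which overlap. The 5 genes are also known to answer to other signals, *Lcn2* to interleukins and *Igfbp1* to low insulin. Other classic targets were inside the limit: *Tat* had 31515 and 33608 (0.09), *Per1* 754 and 823 (0.13) and *Tsc22d3* (GILZ) 724 and 641 (-0.17). Chaperones that hold steroid receptors had a median of 0.11 over 13 genes, with *Fkbp5* above the limit, *Ppid*, another immunophilin of the same complexes, below it (122 and 84.7, -0.53) and *Hsp90aa1* at -0.34.

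Thyroid hormone receptors differ by tissue, and *Thrb* is the form that carries most of the hormone's action in liver. On the per kb scale *Thra* (166) was the higher gene and *Thrb* lay at 15.6, though the gene value of *Thra* also counts the transcript of a form that binds no hormone. *Thra* had 453 in WT and 359 in KO (-0.33). *Thrb* (chr14:17660261-18038090, plus strand) had 119, 65.7 and 82.4 normalized reads in KO libraries and 167, 55.7 and 70.9 in WT libraries. Library 1 was the highest of each genotype, and the other 4 libraries lay between 55.7 and 82.4 with no gap between genotypes. KO minus WT came to -0.01 log2 units (SE 0.50), and 0.22 (SE 0.42) without both libraries 1.

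Among 14 target genes of thyroid hormone, *Fasn* lay above the limit and *Cyp7a1* and *Hr* below it, *Fasn* and *Cyp7a1* being on the LXR list as well. The median was -0.11. *Hr*, a corepressor and a direct target of the hormone in brain, had 11.4, 10.6 and 7.90 normalized reads in KO libraries and 15.5, 12.5 and 34.2 in WT libraries, so that its genotypes did not overlap, as in 2.40% of genes in this direction. *Dio1*, which activates the hormone, had 2902 and 3240 (0.16), and *Thrsp* (Spot 14) 279 and 380 (0.45).

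The oestrogen-related receptors bind no oestrogen and drive mitochondrial genes. *Esrra* had 936 in WT and 983 in KO (0.07). *Esrrb* had 9.91, 10.6 and 27.1 normalized reads in KO libraries and 12.2, 17.1 and 8.56 in WT libraries, with KO library 3 the highest and the other 5 mixed. Its log2 difference was 0.21 (SE 0.49) and 0.46 without both libraries 1. It was -0.23 without KO library 3 and -0.02 without WT library 3, so that its sign rested on single libraries. *Esrrg* (chr1:187608791-188214885, plus strand) had 17.5, 5.79 and 9.03 normalized reads in KO and 22.9, 2.27 and 7.34 in WT libraries. Library 1 was the highest of both genotypes by about 2-fold or more. On the log2 scale KO minus WT was 0.32 (SE 0.72), 0.66 without both libraries 1 and -0.01 by the authors' values. None of 12 ERR target genes was past the limit, with a median of -0.12, the lowest being *Cycs* (-0.40) and *Idh3a* (-0.28) and the highest *Pdk4* (0.42).

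NR4A receptors are immediate early genes with no known ligand, which cAMP and glucagon turn on within minutes through CREB sites. The RefSeq window of a start of *Nr4a1* (Nur77) is printed to show how dense such letters are there (chr15:101266596-101266895, plus strand, GRCm38.p6). Capitals mark CGTCA, which is TGACG, the CREB half-site, read on the other strand. Its 4 copies begin 233, 213, 69 and 40 bases before the start site.
Nr4a1: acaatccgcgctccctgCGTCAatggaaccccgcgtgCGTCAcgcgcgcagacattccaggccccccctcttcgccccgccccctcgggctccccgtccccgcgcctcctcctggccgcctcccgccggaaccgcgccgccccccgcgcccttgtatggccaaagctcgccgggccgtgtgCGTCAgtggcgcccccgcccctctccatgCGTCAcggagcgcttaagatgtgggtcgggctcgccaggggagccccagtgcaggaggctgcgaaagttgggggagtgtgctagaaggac
TGACG was found on either strand in 20.8% of all windows and in 14 of the 52 windows of receptors (26.9%), which belong to 12 receptors, *Nr4a1*, *Nr4a2* and *Nr4a3* included. The full palindrome TGACGTCA, which contains TGACG, was found in 1.79% of windows and, among receptors, in *Nr6a1* alone.

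*Nr4a1* (gene span chr15:101254269-101274795, plus strand) had 40.4, 61.8 and 23.7 normalized reads in KO libraries and 22.0, 39.8 and 128 in WT libraries. WT library 3 was the highest by about 2-fold and WT library 1 the lowest, so that all KO libraries lay inside the WT range. The log2 difference was -0.31 (SE 0.66, 95% interval -1.81 to 1.19), -0.88 without both libraries 1, and 0.38 without WT library 3 and 0.04 without KO library 3, so that its sign rested on single libraries. *Nr4a2* (Nurr1) had 10.7, 1.93 and 9.03 in KO and 5.72, 2.27 and 11 in WT libraries. *Nr4a3* (NOR1) was read 5 times in WT library 1 and not at all in the other 5, where a count of 0 allows up to 3 reads per library. The family was thus low in these fasted livers, and in none of the 3 did the genotypes separate.

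Companion immediate early genes varied between libraries too. *Fos* had 3.81, 25.1 and 6.77 normalized reads in KO and 8.98, 11.4 and 6.11 in WT libraries, with its peak in KO library 2. The 12 such genes with recovered reads summed to 240, 321 and 207 normalized reads in KO libraries and 278, 255.9 and 185 in WT libraries, lowest in WT library 3, where *Nr4a1* was highest. Of 17 such genes with a mean of at least 10, *Maff* was past the limit (50.2 and 107, 1.09), *Jund* had the lowest ratio (-0.43) and *Btg2* had 0.36, with a median of 0.09.

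Coregulators, which receptors recruit to open or close chromatin, had no gene past the limit among 24, with a median of 0.00. The extremes were *Tbl1x*, a part of the corepressor complex (108 and 150, 0.48), *Ppargc1a*, the fasting coactivator PGC-1 alpha (103 and 76.2, -0.44), and *Ncoa4* (0.34). *Ncor1* had 981 and 1019 (0.05). Among 8 receptors outside the members with a mean of at least 10, the clock receptor *Nr1d1* (3497 and 2455, -0.51) lay below the limit, *Ppara* had 0.48, *Nr1h4* (1468 and 1471) had 0.0031 and *Nr0b2* (584 and 588) had 0.011.

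The spread between libraries was large in the weakly expressed receptors. The variance of reads within a genotype over the reads expected from size factors, which is 1 for counting error alone, had a median of 10.5 over the 10 receptors (3.70 for *Esrrb* to 34.0 for *Nr2c2*), beside a median of 4.90 over all 4038 genes. This measure can rise with the level of a gene: normalized reads summed to 85.5 for *Esrrb* and 547 for *Nr2c2*. The receptors were not matched to other genes on level, so the 2 medians do not show that receptors vary more. Library 1 was the highest of both genotypes in 5 of the 10 receptors (*Esrrg*, *Rarb*, *Thrb*, *Nr2c2* and *Esr1*), where 40.5% of all genes had the same pattern. For the 10 receptors, the difference of library 1 from the mean of the other 2 libraries had a Spearman's rho with G + C of -0.72 in WT and -0.26 in KO, points that share the same libraries and for which no p is given. *Esrrg*, with 43.6% G + C, had a library 1 difference of 2.19 log2 units in WT and 1.17 in KO, and *Nr4a1*, with 56.1%, had -1.66 and 0.07. Across all genes the same difference had a rho with gene length of 0.39 in WT and 0.30 in KO. The cause of the library pattern was not tested.

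**Figure D5:**
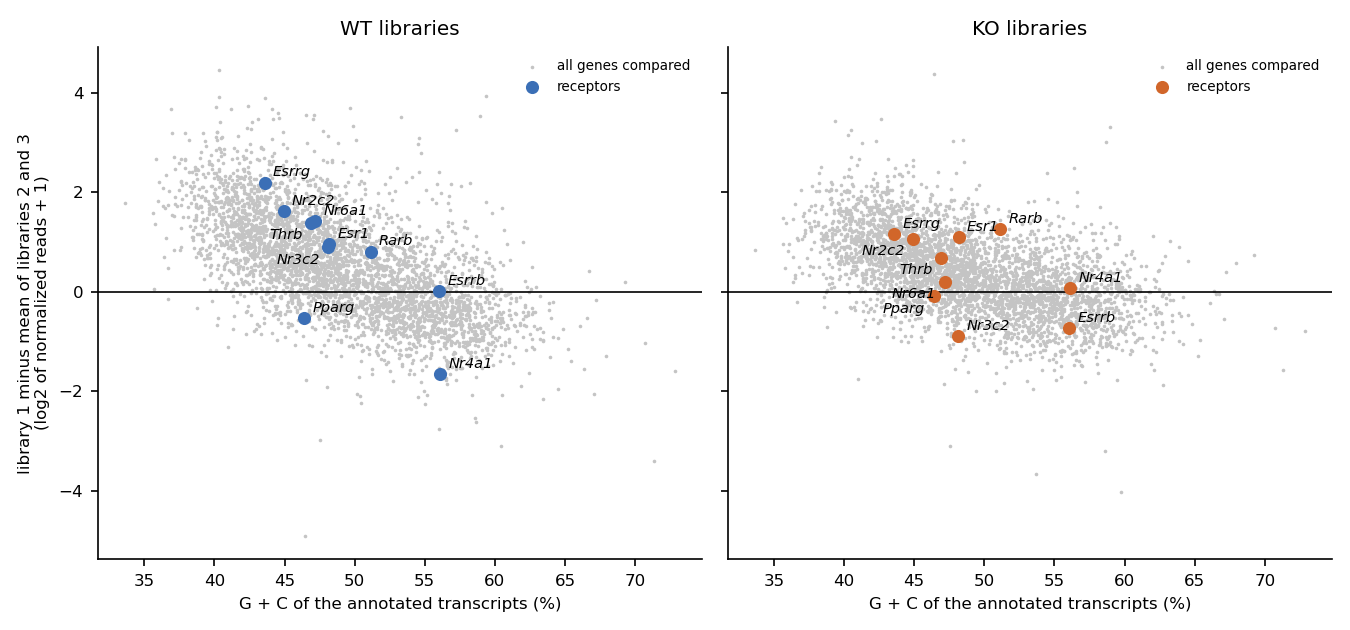
Library 1 minus the mean of libraries 2 and 3, as the log2 of normalized reads + 1, against the G + C content of the annotated transcripts, for WT (left) and KO (right), with all compared genes in grey and the 10 receptors in colour. Grey points fall from upper left to lower right in both panels (Spearman's rho -0.655 and -0.569), and *Esrrg* and *Nr4a1* sit near the ends in WT.

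A term for library 1 in the limma model removed part of that spread. The SE fell from 0.57 to 0.33 for *Nr2c2*, from 0.72 to 0.44 for *Esrrg* and from 0.48 to 0.31 for *Esr1*, with the differences themselves unchanged by construction. No receptor had an adjusted p below 0.792 (*Esr1*) in that model, or an unadjusted p below 0.144. For *Nr3c2* and *Nr4a1*, whose extreme library was another one, it fell less, from 0.70 to 0.67 and from 0.66 to 0.58.

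Markers of other cells were set beside these values. Red blood cell genes had the largest shift, with 5 of 7 past the limit and higher in KO, a median of 0.78, and summed values of 118871 in WT and 180506 in KO. Of 12 Kupffer cell and macrophage markers, *Marco* (0.62) and *Adgre1* (0.50) were past the limit, with a median of 0.14. *Marco* had 52.6, 49.2 and 130 normalized reads in KO and 13.9, 69.4 and 48.9 in WT libraries, which overlap. Of 14 stellate cell and fibroblast markers, *Col1a1* (0.76) and *Col3a1* were above the limit and *Rgs5* (-0.98), *Hgf* (-0.56) and *Dcn* below it, with a median of -0.16. None of 12 endothelial markers was past it (-0.35 to 0.17). Of 7 cholangiocyte markers with a mean of at least 10, *Epcam* was past it (8.44 and 12, 0.51), with a median of -0.02, and of 2 such adipocyte markers *Cfd* was past it (42.1 and 68.0, 0.69) and *Fabp4* had 0.22. *Epcam* had 25.9, 9.65 and 4.52 normalized reads in KO and 9.80, 10.2 and 1.22 in WT libraries. *Cfd* had 197, 48.3 and 11.3 in KO and 4.08, 52.3 and 17.1 in WT libraries. Both genes were highest in KO library 1, and their genotypes overlapped. Of 12 lymphocyte markers 2 reached a mean of 10, *Cd4* (-0.40) and *Cd79a* (-0.48), and *Ms4a1* was near 0 in both genotypes. *Nr2f2*, *Nr1h3* and *Nr3c1* are also expressed outside hepatocytes, and the part of these markers in their ratios was not tested.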

How the data were processed

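Poly(A) RNA of 6 pooled liver samples was sequenced by BGI, and the submitters' processing notes name HISAT2, StringTie, Cufflinks, GATK, Bowtie2, RSEM and the build mm10, with no role or version given. For each gene the authors deposited 1 expression signal per genotype, reads divided by DESeq2 size factors, whose midpoint is the mean over 6 libraries and whose ratio is shrunken toward 0. The authors deposited clean reads as counts per library and mapping rates as percent of clean reads. Their log2 ratios, p-values and adjusted p-values, which hold their own comparison, were not used, nor were the splicing and filter summaries.

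Members, gene lists and tests were chosen with earlier results of these data known. All members were named, and in each list the 3 genes with the largest absolute log2 ratio at a mean of at least 10, apart from further list genes given beside them after their values were seen. Some of the genes this rule names are not reported here.

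Whole reads per library were recovered by enumerating the sets of reads that give the deposited mean, with the worth of 1 read taken from genes with a single read. All 8081 genes whose normalized reads summed to 400 or less and 713 of 979 (72.8%) between 400 and 600 came out as 1 set. For 240 of the latter, *Pparg* and *Esr1* among them, the set within 0.5 log2 units of the authors' ratio was taken. In simulated data 8195 of 8421 genes were resolved, all with the right reads. The genotype values there were made from the simulated reads, which does not test the 0.5 window against the authors' real ratios. In the real data, 1 of 1346 genes with a mean of 30 to 67, a ratio within 0.5 and a single set lay beyond that window. *Pparg* and *Esr1* had higher means than these genes. Size factors ran from 0.818 to 1.31. limma 3.58.1 (R 4.3.3) compared 3 KO with 3 WT libraries on log2(normalized reads + 1), for genes with a sum of at least 60, with Benjamini-Hochberg adjustment. In simulated data it called 191 of 200 genes changed 4-fold, and 4 unchanged genes. Those data had the same spread setting for all genes and no library 1 pattern. The counts therefore do not tell how many such changes limma would find in the real libraries. Permutation tests were exact and two-sided. A gene with few reads has a large counting error. The alternatives were other pseudocounts, minimums, fold limits and scalings, a term for library 1 and each library left out, and, added after seeing the data, both libraries 1 left out. Gene positions and G + C content came from GENCODE M21 on GRCm38, the build also called mm10, and promoter windows from RefSeq on GRCm38.p6, with an entry for 32 members. The counting was not stated to use strand.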

Additional observations from a re-analysis of the deposited data

How the results depend on the processing

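No receptor passed limma's adjusted or unadjusted threshold of 0.05 under any alternative run. By the authors' values none passed the fold limit of 0.5 under other pseudocounts, other minimum means or centring on the median of all genes, nor a limit of 1, whereas at 0.3 there were 5, all lower in KO. Within 0.3 of 0 lay 82.1% of the receptors and 72.4% of all genes. Among all genes, more were lower in KO by 0.5 or more (7.90%) than higher (2.48%). The count of genes called by limma over all genes was 1, became 0 at a minimum sum of 20 and 2 without both libraries 1, and ran from 0 to 1 with each library left out. At an unadjusted p under 0.05 it went from 71 to 129 at a minimum sum of 20, 277 with no minimum, 293 with a term for library 1 and 178 without both libraries 1, and from 31 to 177 with each library left out. Receptors whose genotypes did not overlap went from 0 to 2 (*Nr6a1* and *Esr1*) without both libraries 1, and from 0 to 1 with each library left out (*Esr1* without KO library 1, *Nr6a1* without WT library 1, *Pparg* without WT library 2), separations that 19.0%, 19.6% and 12.6% of all genes showed. Centring the authors' ratios on the median of all genes turned *Rarg* to 0.0066 and *Esrrg* to 0.035. Among the limma differences, *Esrrg* went from 0.32 to -0.013 by the authors' values, *Thrb*, *Pparg* and *Nr2c2* went from -0.01, -0.04 and -0.02 to 0.086, 0.062 and 0.082 with libraries centred on their medians, which moved the median of all genes from -0.05 to 0.04, and *Thrb* and *Nr2c2* were 0.22 and 0.17 without both libraries 1. Centring moves every gene by the same amount. *Esrrg* had a mean of 10.8 normalized reads in KO and in WT, whereas limma compares means of logs. The cause of the other changes was not tested. With each library left out, *Esrrb* ran from -0.23 to 0.46, *Nr4a1* from -0.86 to 0.38, *Esrrg* from -0.38 to 1.05, *Rarb* from -0.72 to 0.035, *Thrb* from -0.33 to 0.45, *Pparg* from -0.21 to 0.20, *Nr2c2* from -0.42 to 0.52 and *Nr3c2* from -0.12 to 1.24, all spanning 0, whereas *Esr1* (-0.86 to -0.18) and *Nr6a1* (0.10 to 0.98) kept their sign. For *Esr1* and *Pparg* the reads had been chosen with the help of the authors' ratio, so their directions are not independent of it. No paired analysis was possible because the genotypes share 1 pool number and the recovered libraries carry none. For 18 receptors no error was computed here, and no library could be left out.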
